A study of Danio rerio with 18 samples.

Results

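A small group of genes was nearly silent or several-fold lower in one genotype and clearly expressed in the other when akr1a1a-/- zebrafish larvae were compared with akr1a1a+/+ larvae. They were chosen by their CPM (a gene's count divided by the total count of its sample, times 1000000). A gene was taken when the lowest of the 6 CPM values of one untreated genotype was at least 0.5 and at least 4 times the highest value of the other genotype after 0.1 CPM had been added to the latter. The targeted gene akr1a1a and all symbols starting with mhc were left out. Of 32482 genes, 30 met this rule. In 13 genes the akr1a1a-/- larvae were higher (0.0400% of the genes) and in 17 genes the akr1a1a+/+ larvae were higher (0.0523%). Since the genes were selected on this contrast, the values of both genotypes are given as a description and are not tested.

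RNA-Seq had been done on 18 samples of whole larvae at 120 hpf (hours post fertilization), with 6 samples in each of 3 groups. The groups were the akr1a1a knockout (akr1a1a-/-), the untreated wild type (akr1a1a+/+), and wild type kept in acrolein (ACR), a reactive aldehyde, from 24 hpf on. Per the methods, the mutants came from 1 line made with CRISPR/Cas9 in fish that carry the fli1:EGFP reporter, which marks endothelial cells, and larvae of a clutch were pooled. A difference between the genotypes is therefore a difference between this mutant line and its wild type, and differences linked to the edited gene cannot be told apart from other differences between these fish. No mutant larvae treated with ACR were in these groups.

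akr1a1a codes for an aldo-keto reductase, an enzyme that turns aldehydes into alcohols. Its level checked the labels. It lay between 0.294 and 0.739 CPM in akr1a1a-/- larvae, between 2.34 and 3.43 CPM in akr1a1a+/+ larvae and between 2.82 and 3.78 CPM in ACR-treated larvae, so that the mutant samples did not overlap with either wild-type group. The gene listed as AKR1A1 in the name table, a second gene of this enzyme, stood at 16.6 ± 1.20, 14.7 ± 1.41 and 15.2 ± 1.68 CPM (SD, n = 6) in the same order. Total counts ranged from 19878464 to 20463404 over the 18 samples, so 3 counts, taken as the smallest detectable level, equal 0.147 to 0.151 CPM. This floor covers counting error only. Of 24 marker genes of larval organs that were found by symbol, 22 were at 1 CPM or more in all 18 samples. All akr1a1a+/+ libraries were sequenced on lane 2 and all akr1a1a-/- libraries on lane 3, whereas ACR-treated replicates 1 to 3 were on lane 2 and replicates 4 to 6 on lane 3.

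As background, laboratory zebrafish are not fully inbred, and families can carry different alleles and different sets of recently duplicated genes. Many zebrafish genes still carry the name of the genomic clone on which they were found (names starting with si:), with a number that counts the genes of that clone. Such names and bare identifiers are common in young, repeated families, for which the closest human gene is often unclear. Some of the genes described here belong to large families. These include protocadherins, which are adhesion proteins of neurons, cerebellins, which are secreted proteins of the C1q type with roles at synapses, and odorant receptors.

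Named genes with a known role were the minority. Clone or locus names were carried by 14 of the 30 genes (46.7%, against 14.8% of the 23223 genes that passed the low-count filter), and 7 genes had no symbol (23.3% against 6.45%). Another 7 genes had ordinary symbols (23.3% against 77.2%). The remaining pair were or113-4, an odorant receptor, and a long noncoding RNA. Genes named as zinc fingers (znf or zfp with a number) were 0 of the 30, against 258 (1.11%) of those past the filter. At that share, none among 30 genes is not unusual. Zinc finger genes with clone names or no symbol were not counted. All 30 genes passed the filter over the 18 samples, and 22 of them passed it over the 12 wild-type samples alone.

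**Figure D1:**
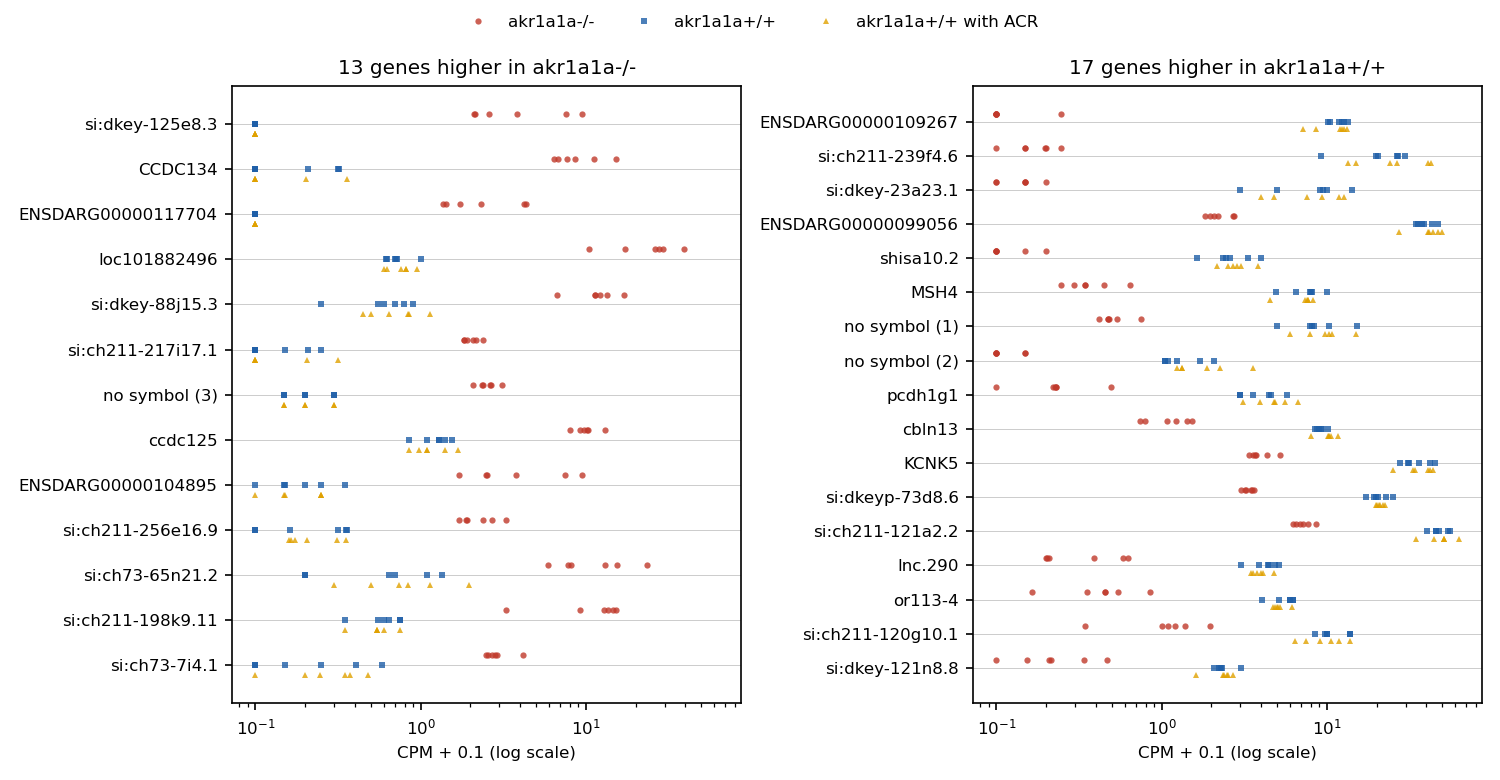
CPM plus 0.1 on a log scale (x axis) of the 30 genes in every sample. The left panel holds the 13 genes higher in akr1a1a-/- larvae (circles) and the right panel the 17 genes higher in akr1a1a+/+ larvae (squares), with ACR-treated larvae as triangles. Each point is 1 sample of 6 per group, points at 0.1 are samples with no count, and the triangles lie beside the squares in both panels.

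Among the 13 genes higher in akr1a1a-/- larvae, CCDC134 and ccdc125 were the ones with ordinary symbols. Both encode coiled-coil proteins, and human CCDC134 is a secreted protein. CCDC134 (ENSDARG00000103285) was at 8.44, 6.35, 7.59, 15.1, 6.66 and 11.2 CPM in akr1a1a-/- replicates 1 to 6. In akr1a1a+/+ larvae it was at 0 in 3 samples and no higher than 0.221 CPM, and in ACR-treated larvae at 0 in 4 samples and no higher than 0.261 CPM. The ratio of the genotype means was 101. ccdc125 was not silent in the wild type, but its ranges were far apart, with 7.90 to 13.0 CPM in akr1a1a-/- larvae and 0.746 to 1.46 CPM in akr1a1a+/+ larvae (means 9.96 ± 1.69 and 1.15 ± 0.249, SD, n = 6).

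A second gene carries the symbol CCDC134 (ENSDARG00000030508), and it went the other way. It measured 0.641, 1.07, 0.616, 0.122, 1.68 and 0 CPM in the akr1a1a-/- samples. In akr1a1a+/+ larvae it lay between 1.98 and 2.95 CPM, above every mutant sample, and the mean of ACR-treated larvae was 2.71 CPM. The sum of both genes was 9.90 ± 2.89 CPM in akr1a1a-/-, 2.49 ± 0.451 in akr1a1a+/+ and 2.77 ± 0.710 in ACR-treated larvae (SD, n = 6). The mutant larvae thus had their CCDC134 counts mainly on the gene that was near 0 in the wild type. Reads of near-identical copies can be divided between them by the counting, and the split between such copies is then less certain than their sum. The estimated counts of ENSDARG00000103285 were whole in 8 of the 18 samples. Sharing of reads was not tested.

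A pair of genes had no count at all in any of the 12 wild-type samples, treated or not. The first was si:dkey-125e8.3, with 9.35, 3.74, 7.45, 2.03, 2.49 and 2.01 CPM in akr1a1a-/- replicates 1 to 6. Set against the floor of 3 counts in each library, the mean of these 6 values was at least 30.2-fold higher. The other, ENSDARG00000117704, was at 4.14, 2.22, 4.24, 1.63, 1.27 and 1.32 CPM, with a mean at least 16.5-fold higher than the floor. These folds are of the means and do not hold for every clutch. Replicates 1 and 3 were the highest for both genes.

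The same clutches led for a further gene without a symbol. ENSDARG00000104895 measured 7.39, 3.69, 9.42, 2.41, 1.61 and 2.40 CPM in akr1a1a-/- larvae, against 0 to 0.251 CPM in akr1a1a+/+ and 0 to 0.150 CPM in ACR-treated larvae. In all 3 genes the second highest clutch was 1.87 to 2 times the next one. In the other 10 genes this step was between 1.01 and 1.32. Among these 10, another gene without a symbol also had replicates 3 and 1 on top, but with a step of only 1.02. The clutches of the mutant line therefore did not carry the transcripts of the first 3 genes at a common level, although all 6 were above every wild-type sample.

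A pair of the 3 other genes of clone si:dkey-125e8 showed the same clutches on top. si:dkey-125e8.5, which was too low to pass the filter, was at 3.40, 0.738, 2.27, 0.543, 0.489 and 0.931 CPM in akr1a1a-/- replicates 1 to 6, with replicates 1 and 3 the highest. It had at most 0.0502 CPM in akr1a1a+/+ larvae and no count in ACR-treated larvae. si:dkey-125e8.4 was at 0.935 CPM in replicate 1 and 0.444 CPM in replicate 3, was lower in the other mutant clutches and had no count in the 12 wild-type samples. The third, si:dkey-125e8.1, had no count in any sample but 1, with 1 count in akr1a1a-/- replicate 6.

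**Figure D2:**
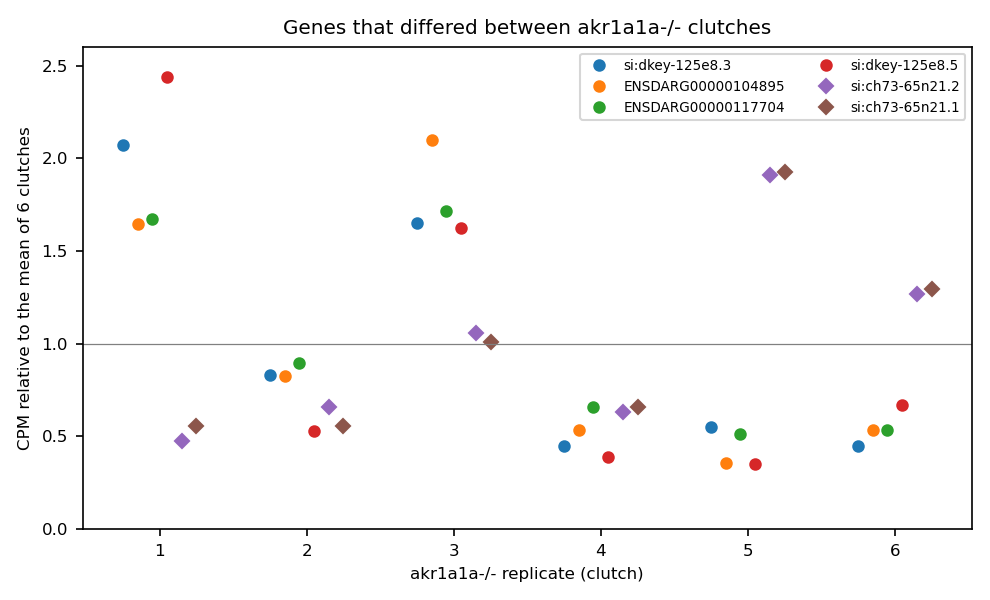
CPM of 6 genes in each akr1a1a-/- replicate (x axis, 1 clutch each), divided by the gene's mean over the 6 clutches (y axis, no unit, mean at 1). si:dkey-125e8.3, its clone mate si:dkey-125e8.5 and both genes without a symbol (circles) were highest in replicates 1 and 3, while si:ch73-65n21.2 and si:ch73-65n21.1 (diamonds) were highest in replicates 5 and 6.

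loc101882496 reached the highest mean of the genes higher in akr1a1a-/- larvae in CPM. Its 6 values were 39.4, 10.4, 27.6, 29.2, 26.2 and 17.3 CPM. In akr1a1a+/+ larvae it lay between 0.518 and 0.904 CPM and in ACR-treated larvae between 0.499 and 0.851 CPM, and the ratio of genotype means was 39.8. No role is assigned to this gene here.

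The clone-named genes completed the group. si:dkey-88j15.3 was at 11.9 ± 3.36 CPM in akr1a1a-/- larvae (range 6.63 to 17.0), against 0.149 to 0.795 CPM in akr1a1a+/+ larvae. si:ch211-217i17.1 was low but even, with 1.74 to 2.29 CPM in akr1a1a-/- larvae and no more than 0.149 CPM in akr1a1a+/+ larvae. A further clone-named gene and a gene without a symbol had a similar level, with means of 2.21 and 2.44 CPM against 0.133 and 0.117 CPM. In si:ch211-198k9.11, akr1a1a-/- replicate 1 stood at 3.20 CPM while the other 5 clutches lay between 9.12 and 15.1 CPM, and akr1a1a+/+ larvae reached 0.646 CPM at most.

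si:ch73-65n21.2 varied between clutches in another order. It measured 5.81, 8.02, 12.9, 7.71, 23.3 and 15.4 CPM in akr1a1a-/- replicates 1 to 6. Its clone mate si:ch73-65n21.1, which fell just outside the rule with a ratio of 3.87, measured 7.29, 7.29, 13.2, 8.59, 25.2 and 16.9 CPM. Both were highest in replicate 5 and next highest in replicate 6. In akr1a1a+/+ larvae they ranged from 0.0994 to 1.24 CPM and from 0.252 to 1.78 CPM. The estimated counts of si:ch73-65n21.2 were whole in all 18 samples, and those of si:ch73-65n21.1 were whole in the digits kept. Whether these 2 genes share reads was not tested.

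si:ch73-7i4.1 was the member closest to the threshold among genes higher in akr1a1a-/- larvae, with a ratio of 4.10 (2.40 to 4.05 CPM against 0 to 0.485 CPM). Its neighbour on the same clone differed between wild-type clutches. si:ch73-7i4.2 was at 3.23 to 4.63 CPM in all akr1a1a-/- samples. In akr1a1a+/+ larvae it was at 4.77 CPM in replicate 5 and at 0.0996 to 0.302 CPM in the other 5 samples. In ACR-treated larvae it was likewise at 3.73 CPM in replicate 5 and at 0 to 0.249 CPM in the others. The genotype ranges overlap through this 1 clutch number, so the gene did not meet the rule.

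In the opposite direction, the 17 genes higher in akr1a1a+/+ larvae held more genes with a known role. KCNK5 (ENSDARG00000023587) encodes a potassium channel of the two-pore-domain family that responds to pH in mammals. It was at 45.2, 30.9, 35.8, 27.8, 31.2 and 42.1 CPM in akr1a1a+/+ replicates 1 to 6 and at 25.2 to 43.6 CPM in ACR-treated larvae. In akr1a1a-/- larvae it lay between 3.26 and 5.12 CPM, a 9.14-fold lower mean that was still well above the floor. The second gene with this symbol (ENSDARG00000012390) was lower in level and went the other way, at 5.05 ± 0.611 CPM in akr1a1a-/-, 3.46 ± 0.433 in akr1a1a+/+ and 3.59 in ACR-treated larvae, without overlap between the untreated genotypes. Summed over both genes, KCNK5 counts were 8.93 ± 0.789 CPM in akr1a1a-/- and 39.0 ± 7.05 CPM in akr1a1a+/+ larvae (SD, n = 6). The estimated counts of ENSDARG00000023587 were whole in all 18 samples.

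MSH4, a MutS homolog that works with MSH5 in meiotic recombination, was at 7.77, 9.99, 7.88, 6.43, 4.82 and 8.05 CPM in akr1a1a+/+ larvae. The akr1a1a-/- larvae held 0.147 to 0.543 CPM, and the ratio of means was 26.1. Its partner MSH5 overlapped between the genotypes, at 0.640 ± 0.286 CPM in akr1a1a-/- and 1.01 ± 0.540 CPM in akr1a1a+/+ larvae (SD, n = 6). The germ line genes DDX4 and PIWIL1 were at 2.44 and 2.85 CPM in akr1a1a-/- larvae. In akr1a1a+/+ larvae they were at 1.52 and 2.19 CPM, with overlapping ranges. In whole larvae, fewer cells of a type and less RNA per cell cannot be told apart.

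A further 3 genes encode proteins of the cell surface or the synapse. shisa10.2, of the Shisa family of small membrane proteins, had no count in 4 of 6 akr1a1a-/- samples and at most 0.0988 CPM in the others. In akr1a1a+/+ larvae it was at 2.49, 3.88, 3.22, 2.36, 1.54 and 2.26 CPM. The ratio of means was 107, with a 95% counting interval of 36.2 to 521. Such an interval covers counting error only. It leaves out the spread between clutches and the choice of the gene on this same contrast. Its relative shisa10.1 was abundant and even, at 69.8 ± 4.29 CPM in akr1a1a-/- and 70.5 ± 3.85 CPM in akr1a1a+/+ larvae.

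pcdh1g1, a clustered protocadherin, was at 0 to 0.391 CPM in akr1a1a-/- larvae and at 2.88 to 5.68 CPM in akr1a1a+/+ larvae. Among the other 17 pcdh1g genes past the filter, 4 had genotype ranges that did not overlap, and these went both ways. pcdh1gc5 was lower in akr1a1a-/- larvae (23.2 ± 11.2 against 51.0 ± 4.19 CPM), as was pcdh1g14 (1.51 ± 0.190 against 3.80 ± 0.897 CPM). pcdh1g33 was higher (39.1 ± 3.83 against 22.1 ± 5.89 CPM), as was pcdh1g31. For comparison, ranges of the untreated genotypes did not overlap in 1741 of the 23223 genes (7.50%).

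cbln13, a cerebellin, was the most even gene of the 30 in its high group. It was at 10.1, 8.35, 8.58, 9.24, 8.90 and 9.16 CPM in akr1a1a+/+ larvae, with a coefficient of variation of 6.80%, and at 0.640 to 1.43 CPM in akr1a1a-/- larvae. Of 13 other cbln genes past the filter, 4 had ranges that did not overlap, beside 7.50% of all genes past the filter. cbln11 was lower in akr1a1a-/- larvae (1.51 ± 0.234 against 3.49 ± 0.749 CPM), while cbln17, cbln18 and cbln20 were higher. cbln17, for example, stood at 3.20 ± 0.413 CPM in akr1a1a-/- and 1.78 ± 0.330 CPM in akr1a1a+/+ larvae (SD, n = 6).

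The odorant receptor or113-4 was at 5.93, 5.91, 6.12, 6.11, 5.02 and 3.93 CPM in akr1a1a+/+ larvae and at 0.0643 to 0.746 CPM in akr1a1a-/- larvae. By symbol, 156 odorant receptor genes were listed and 57 passed the filter. Of the other 56, 2 were higher and 1 was lower in akr1a1a-/- larvae without overlap of the ranges. Over all genes past the filter, the ranges did not overlap in 7.50%. or93a9, the next matched gene to or113-4 in the gene order described below, was at 8.67 ± 1.64 CPM in akr1a1a-/- and 8.27 ± 1.26 CPM in akr1a1a+/+ larvae (SD, n = 6). The gene named as a long noncoding RNA lay between 2.91 and 5.02 CPM in akr1a1a+/+ larvae and between 0.101 and 0.523 CPM in akr1a1a-/- larvae.

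The sharpest switch of the 30 was in a gene without a symbol. ENSDARG00000109267 was at 10.3, 12.6, 11.7, 13.4, 12.3 and 10.0 CPM in akr1a1a+/+ replicates 1 to 6. It had no count in 5 akr1a1a-/- samples and 0.146 CPM in replicate 6, at the floor. The ratio of means was 482, with a 95% counting interval of 163 to 2313. The limits given for the interval of shisa10.2 hold here too. In addition, the estimated counts of ENSDARG00000109267 were whole in 6 of the 18 samples, against all 18 for shisa10.2. The interval leaves out any sharing of reads with other genes, which was not tested. ENSDARG00000099056 was more abundant, at 39.4 ± 4.75 CPM in akr1a1a+/+ larvae, but was still detected at 1.73 to 2.66 CPM in every akr1a1a-/- sample. Both remaining genes without a symbol had means of 9.06 and 1.27 CPM in akr1a1a+/+ larvae and of 0.421 and 0.0164 CPM in akr1a1a-/- larvae.

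Of the clone-named genes, si:ch211-239f4.6 and si:dkey-23a23.1 were at or under 3 counts in all akr1a1a-/- samples and varied widely in the wild type. si:ch211-239f4.6 measured 26.6, 29.5, 20.3, 26.8, 19.7 and 9.08 CPM in akr1a1a+/+ replicates 1 to 6, and 40.6, 42.6, 15.01, 26.4, 24.0 and 13.2 CPM in ACR-treated replicates 1 to 6. si:dkey-23a23.1 measured 9.91, 14.2, 2.88, 9.44, 4.87 and 8.95 CPM in the untreated and 7.45, 12.6, 4.68, 11.7, 3.90 and 9.20 CPM in the treated replicates. In this gene replicate 2 was the highest and replicates 3 and 5 the lowest in both wild-type groups, and replicate 2 was also the highest for si:ch211-239f4.6 in both.

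The other 4 clone-named genes had different levels in akr1a1a-/- larvae. si:ch211-121a2.2 was at 40.4 to 55.4 CPM in akr1a1a+/+ and at 6.11 to 8.50 CPM in akr1a1a-/- larvae, a 6.82-fold lower mean. Per length it was the most abundant of the 30 genes, at 134 ± 16.6 TPM (a level scaled by gene length and sample total, SD, n = 6). This was above 96.9% of the genes past the low-count filter. si:dkeyp-73d8.6 was at 20.7 CPM against 3.25 CPM, the smallest ratio of means of the 30, 6.37-fold. Its clone mate si:dkeyp-73d8.9 was also low in every akr1a1a-/- sample, at 1.30 to 2.31 CPM. In akr1a1a+/+ larvae that mate was at 4.20 and 5.63 CPM in replicates 2 and 4 and at 17.4 to 25.9 CPM in the others, and ACR-treated replicates 2 and 4 were again the low ones, at 4.80 and 5.25 CPM. Another mate, si:dkeyp-73d8.8, overlapped between the genotypes, at 7.32 ± 2.05 CPM in akr1a1a-/- and 5.36 ± 2.79 CPM in akr1a1a+/+ larvae (SD, n = 6). Among akr1a1a+/+ samples it was highest in replicates 2 and 4, at 8.02 and 8.75 CPM. The estimated counts of si:dkeyp-73d8.6 were whole in 0 of the 18 samples, and sharing of reads was not tested. si:ch211-120g10.1 and si:dkey-121n8.8 lay just inside the threshold, with ratios of 4.28 and 4.23, and means of 10.9 and 2.26 CPM in akr1a1a+/+ larvae. In akr1a1a-/- larvae the first was at 0.245 to 1.86 CPM and the second at 0 to 0.364 CPM, with 4 of 6 samples at or under 3 counts.

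**Figure D3:**
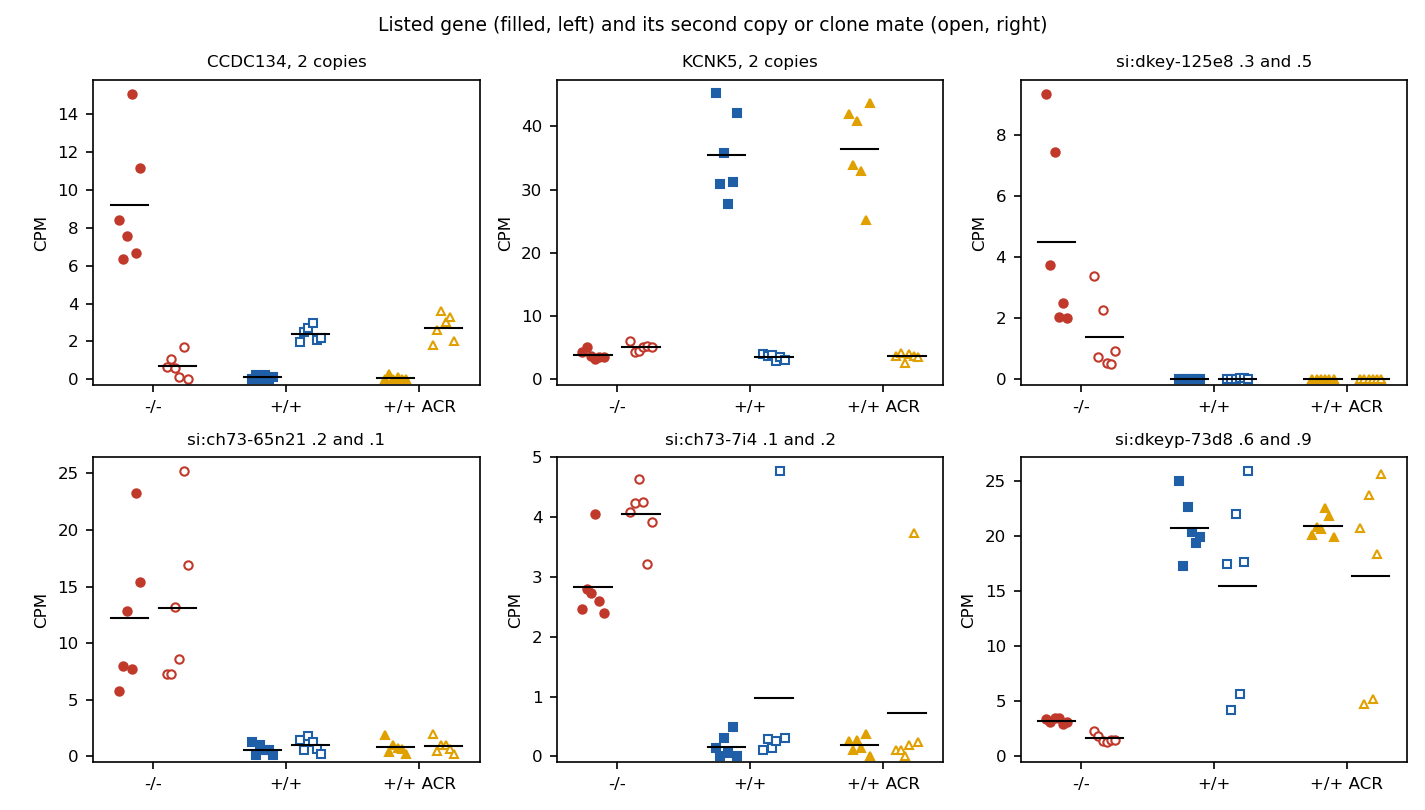
CPM (y axis, linear, a scale for each panel) of 6 of the 30 genes (filled, left) beside the second gene of the same symbol or a gene of the same clone (open, right) in akr1a1a-/-, akr1a1a+/+ and ACR-treated akr1a1a+/+ larvae. Points are single samples and lines are means of 6. The CCDC134 and KCNK5 genes went opposite ways, the clone mates went the same way, and si:ch73-7i4.2 was high in replicate 5 of both wild-type groups.

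How complete the silence was differed between the genes. In the lower genotype, all 6 samples were at or under 3 counts for 3 of the 13 genes higher in akr1a1a-/- and for 5 of the 17 genes higher in akr1a1a+/+ larvae. All 6 samples were above 3 counts for 3 and 7 genes, respectively. In the higher genotype, levels spanned most of the range of expression. Per length, they were ranked against the genes past the low-count filter. They lay above 12.7% to 86.7% of these (median 41.7%) in akr1a1a-/- larvae and above 6.05% to 96.9% (median 60.0%) in akr1a1a+/+ larvae.

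For the genes higher in akr1a1a-/- larvae, the coefficient of variation over the 6 mutant samples ran from 11.3% to 70.7% with a median of 36.4%, beside a median of 11.1% over all genes with a mean of 1 to 50 CPM in that group. For the genes higher in akr1a1a+/+ larvae, the median over the wild-type samples was 19.4%, beside 11.2% over all such genes. The spread was more than 2 times what counting alone gives in 9 of 13 and 11 of 17 genes, beside 25.6% and 25.8% of all genes in that range of means. These values were not tested.

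Just outside the threshold, the next genes higher in akr1a1a-/- larvae were si:ch73-65n21.1 and 2 genes without a symbol, with ratios of 3.87, 3.77 and 2.92. On the other side these were si:dkey-82k12.7, si:dkeyp-100h4.1 and znf1028, a zinc finger gene, with ratios of 3.87, 3.79 and 3.71. Of the symbols left out by name, only mhc1uba, a gene of the class I antigen presentation family, was past the thresholds. It was at 0.0901 ± 0.0655 CPM in akr1a1a-/-, 2.91 ± 0.945 in akr1a1a+/+ and 2.995 in ACR-treated larvae.

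Whether the genes lay together in the genome was examined from names and from gene order. The 13 clone-named genes came from 13 different clones. These clones held 19 other genes past the filter, and 2 of them (10.5%) had genotype ranges that did not overlap, si:ch73-65n21.1 and si:dkeyp-73d8.9. Both went in the direction of the listed gene. In the gene order of RefSeq, in the assembly GRCz12tu, 11 of the 30 genes could be placed. Places were counted only over protein-coding genes past the filter that were matched uniquely by name, so other genes in between were skipped. Those of the 30 genes that could not be placed could not appear as neighbours. Of the 110 matched genes within 5 places on either side, none was itself one of the 11 placed genes. Ranges did not overlap in 12 of the 110 (10.9%, beside 7.50% of the genes past the filter), 9 of them in the direction of the listed gene. These included KTN1 beside MSH4 (182 ± 6.96 CPM in akr1a1a-/- against 228 ± 13.5 CPM in akr1a1a+/+ larvae), zgc:66427 beside cbln13 (23.8 ± 1.29 against 45.9 ± 4.01 CPM) and FAM151B beside ccdc125 (3.63 ± 0.789 against 2.10 ± 0.314 CPM).

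A gene 2 places from si:ch211-217i17.1 went the opposite way. si:ch211-285c6.1 had no count in any akr1a1a-/- sample and a mean of 0.585 ± 0.252 CPM in akr1a1a+/+ larvae, while si:ch211-217i17.1 was high in the mutant larvae. None of the placed genes was among the 10 matched genes nearest to akr1a1a, of which FANCG and ATXN2 had ranges that did not overlap. The genes that could not be placed were not covered by this.

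ACR-treated larvae served as a second wild-type group, which the rule had not used. Every one of the 30 genes had all 6 treated samples on the side of the akr1a1a+/+ larvae, or 180 of 180 values, when the geometric midpoint between the genotypes was used as the border. Of these values, 150 lay within the range of the 6 untreated akr1a1a+/+ samples. The 3 treated samples that were sequenced on lane 3, as were all mutant samples, were on the wild-type side for all 30 genes too. On a log2 scale with the akr1a1a-/- mean at 0 and the akr1a1a+/+ mean at 1, the means of the treated larvae lay between 0.886 and 1.12. The treated samples cannot be taken as an independent draw of wild-type clutches, although nothing states that the replicate numbers mark shared clutches. Over all genes, treated and untreated samples of the same replicate number deviated together from their group means (correlations of 0.249 to 0.603), as they did in si:dkey-23a23.1, si:ch73-7i4.2 and si:dkeyp-73d8.9 above.

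**Figure D4:**
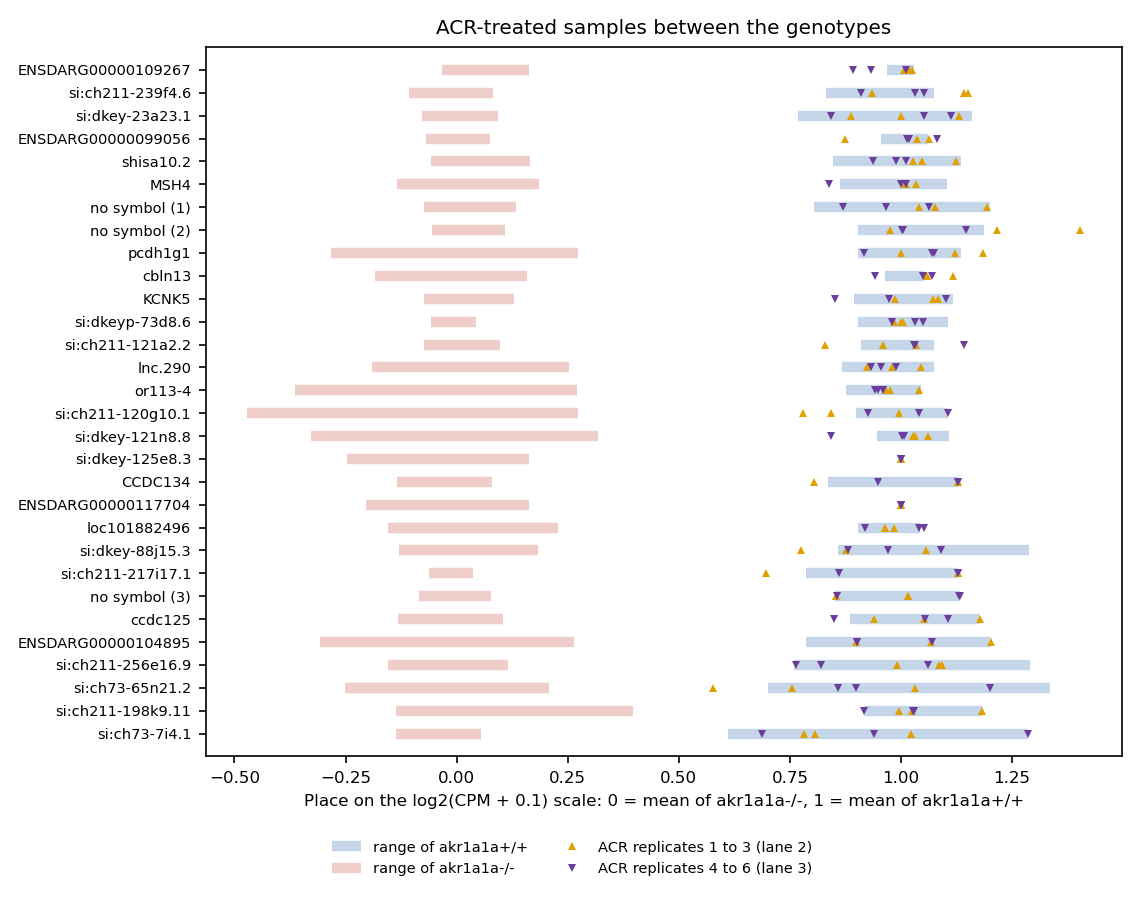
Place of each ACR-treated sample on a log2(CPM + 0.1) scale (x axis) where 0 is the mean of akr1a1a-/- and 1 the mean of akr1a1a+/+ larvae, for the 30 genes. Bars are the ranges of the 6 untreated samples of each genotype, upward triangles are treated replicates 1 to 3 (lane 2) and downward triangles replicates 4 to 6 (lane 3). All treated samples lie on the side of akr1a1a+/+ and most lie within its bar.

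The rule was then applied with the treated samples in place of the untreated wild type. The mutant samples were again those by which the genes had been chosen, so this was not an independent repeat. Of the 30 genes, 27 met the rule. The other 3 were si:ch73-65n21.2, si:ch211-120g10.1 and si:dkey-121n8.8. si:ch73-65n21.2 reached 1.85 CPM in ACR-treated replicate 1, against 5.81 CPM in the lowest mutant sample. In all, this second comparison found 13 genes higher in akr1a1a-/- larvae (12 of them shared) and 21 genes higher in treated larvae (15 shared). The same rule found no gene in either direction between treated and untreated akr1a1a+/+ larvae.

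No effect of ACR was detected at an adjusted p below 0.05 on those of the 30 genes that could be tested. edgeR's quasi-likelihood test called 6 of 23223 genes between treated and untreated akr1a1a+/+ larvae at an adjusted p below 0.05 (0.0258%). At an unadjusted p below 0.05 there were 1259 genes (5.42%). Of the 30 genes, 8 passed the filter only through the akr1a1a-/- samples, and 2 of these (si:dkey-125e8.3 and ENSDARG00000117704) had no count in either group, so that this test could not call them. Of the other 22 genes, 0 were called and 0 had an unadjusted p below 0.05 in this test, which did not use the replicate numbers. The untreated samples of this test were those by which the rule had chosen the genes, so it is not independent of that choice. Their log2 fold changes lay between -0.17 and 0.51 with a median of 0.02, and their adjusted p values between 0.910 and 0.995. For the best measured genes the errors were small, such as 0.02 ± 0.13 (SE) for KCNK5 and 0.00 ± 0.07 for si:dkeyp-73d8.6. For a gene near 0 in the wild type, CCDC134, which was among the 8, the value was -0.49 ± 1.07. With the replicate number as a block over all 18 samples the test called 32 genes, and 0 of the 22. In that fit, 1 of the 30 genes had an unadjusted p below 0.05, beside 1843 of all 23223 genes. These 30 include the 8 genes that passed the filter only through the akr1a1a-/- samples, 2 of them without a count in either group. The fit with all 18 samples also held the akr1a1a-/- samples, whose numbers were only weakly tied to the wild type. With the block and only the 12 wild-type samples, edgeR called 137 genes. That fit tested 22 of the 30 genes. Of these 22, 0 were called, with a lowest adjusted p of 0.313. An unadjusted p below 0.05 was found for 3 of them, beside 3109 of all 22866 genes in that fit.

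The lanes were compared within the treated larvae, 3 against 3 samples. edgeR called 0 of 23769 genes (0.00%), and 3097 genes (13.0%) had an unadjusted p below 0.05. Of the 30 genes, 21 passed the filter on the treated samples alone. Of these 21, 0 were called and 2 had an unadjusted p below 0.05, si:ch211-121a2.2 (log2 fold change of lane 3 to lane 2 of 0.36 ± 0.14, SE) and ENSDARG00000109267 (-0.42 ± 0.19). DESeq2 called 30 genes, and gave an adjusted p to 5 of the genes described here, of which 0 were called. In this comparison the lane cannot be told apart from the clutches, because each lane held other replicate numbers. The rule itself, applied to the lanes, found 3 genes higher on lane 3 and 0 higher on lane 2, and none of these was among the 30. Between the untreated genotypes, the lane and the genotype cannot be told apart.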

How the data were processed

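Groups and replicate numbers were read from the labels of the 18 samples. The deposited tables hold estimated counts (not normalized) and TPM (scaled by gene length and sample total by the authors). The submitters' processing notes name Trim Galore 0.6.4, kallisto 0.4.6 and the build GRCz11. Symbols for 29201 genes came from a name table. CPM values use the summed counts of a sample. The genes, the lists and the tests were chosen with earlier results of these data known. Genes were named by size of ratio, level, nearness to the threshold, and being a copy or neighbour, with at most 2 bare identifiers per direction.

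For tests, counts were rounded and fitted with edgeR 4.0.16 (R 4.3.3, TMM, filterByExpr, glmQLFit and glmQLFTest, 3 group means, 15 residual degrees of freedom), with Benjamini-Hochberg adjustment over all genes tested. DESeq2 1.42.0 and limma 3.58.1 were alternatives. The procedure was tested on simulated data. Standard errors are approximate. Same-numbered treated and untreated wild-type samples correlated in all 6 pairs (at least 0.249), so that the numbers were taken to pair these groups. Between the genotypes the correlations were 0.0387 to 0.131. Nothing states that the numbers mark shared clutches. Counts were whole (within 0.01) in all samples for 13 of the 30 genes (43.3%), against 12157 of the 23223 genes past the low-count filter (52.3%). Among the 30, they were whole in 0 of the 18 samples for loc101882496, or113-4 and si:dkeyp-73d8.6, among others. For pcdh1g1 and the long noncoding RNA they were whole in 1 sample. Sharing of reads was not tested for any of these genes. Sequences of the copies were not analysed here.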

Additional observations from a re-analysis of the deposited data

Results flagged for a closer look

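In 7 of the 62 groups of 6 samples that were examined, 1 sample stood apart from the others. The nominal rate of this rule is about 1 in 20. The share over all genes was not computed. Treated and untreated samples of the same replicate number also deviated together, so the groups are not independent. Whether 7 is more than usual therefore cannot be said. Replicate 5 was the sample in 3 of the 7 groups. In ACR-treated larvae it had 4.45 CPM of MSH4, with the other 5 samples at 7.32 to 8.12 CPM, and 1.51 CPM of si:dkey-121n8.8, with the others at 2.26 to 2.62 CPM. In untreated akr1a1a+/+ larvae it had 0.904 CPM of loc101882496, with the others at 0.518 to 0.620 CPM. MSH4 was lowest in replicate 5 of the untreated group as well.

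akr1a1a+/+ replicate 1 had 2.93 CPM of si:dkey-121n8.8, with the others at 1.97 to 2.22 CPM. ACR-treated replicate 3 had 6.05 CPM of or113-4, with the others at 4.66 to 5.09 CPM. akr1a1a-/- replicate 4 had 4.05 CPM of si:ch73-7i4.1, with the others at 2.40 to 2.79 CPM. akr1a1a-/- replicate 1 had 0.648 CPM of a gene without a symbol that was higher in the wild type, with the others at 0.317 to 0.435 CPM. The untreated samples among these could not cross to the side of the other genotype, because the rule had required the genotypes to be apart. The treated ones lay on the wild-type side, as did all treated samples.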

How the results depend on the processing

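The counts of 13 and 17 genes depend on how strict the rule is. They were 4 and 4 genes with a factor of 8, 26 and 48 with a factor of 2, and 5 and 10 with an offset of 0.5 CPM. They were 13 and 17 with TMM or DESeq2 scaling and 13 and 16 with a minimum of 1 CPM. With TPM in place of CPM they were 19 and 25, of which 12 and 16 were shared. When 1 sample was left out they were 13 to 15 and 17 to 21. Leaving out a sample can only keep or add genes under this rule, so the lower ends were fixed in advance. All 30 genes kept the wild-type side in ACR-treated larvae with TMM-scaled totals, with TPM in place of CPM and with an arithmetic midpoint. Leaving out 1 treated sample could not change this count, because every treated sample was already on that side. For ACR against untreated akr1a1a+/+ larvae, the replicate block gave 32 called genes with 18 samples and 137 with the 12 samples compared. The count was 1 gene with these 12 samples and no block, 20 and 1 with the treated samples of lane 2 or of lane 3 alone, 2 and 3 with limma on log2(TPM + 1) and log2(TPM + 0.1), 24 with DESeq2, and 3 to 10 when 1 sample was left out. It was 10 without akr1a1a+/+ replicate 2 and 3 without akr1a1a+/+ replicates 4, 5 or 6 or treated replicates 2 or 4. For the lanes, the replicate block gave 1 gene, DESeq2 30, and leaving out 1 sample 0 to 6, with 6 without treated replicate 3. None of the genes described was called by a fit that tested it. The fits of the 12 samples with and without the block, and the lane fit with the block, tested 22 of the 30, the filter of 10 counts in every sample 19, and DESeq2's lane test 5. Genes under 3 counts in 1 genotype allow no closer limit at this depth.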
